A study of Mus musculus with 21 samples.

Results

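Calcium-activated potassium channels and hyperpolarization-activated cyclic nucleotide-gated (HCN) channels were followed through 9 genes selected by symbol: Kcnma1, Kcnmb4, Kcnn1, Kcnn2, Kcnn3, Kcnn4, Hcn2, Hcn3 and Hcn4. Of these, 8 were among the 16318 genes of the count table, and Kcnn4 was not analysed here. All 8 passed the low-count filter and were tested among 16303 genes. The samples were whole brains of 21 SAMP8 mice, a senescence-accelerated strain, each sequenced as 1 library. In 12 mice (6 females and 6 males) only phosphate-buffered saline (PBS) was injected. The other 9 mice (3 females and 6 males) received HsTX1[R14A], a peptide that blocks the voltage-gated potassium channel Kv1.3, subcutaneously at 1 mg/kg on every other day for 8 weeks. Mice of both groups were 4 months old when dosing began and 6 months old when it ended, were tested for behavior in the final weeks of dosing and were perfused with ice-cold PBS before the brain was taken. Both groups carry the SAMP8 background, and no mouse of another strain was analysed here.

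BK, SK and HCN channels shape how often and how regularly a neuron fires. Kcnma1 encodes the pore of the BK channel, which opens with calcium and depolarization together and shortens the action potential, and Kcnmb4 encodes the beta subunit that slows its gating in neurons. Kcnn1, Kcnn2 and Kcnn3 encode the SK channels SK1, SK2 and SK3, which sense calcium through bound calmodulin and carry the slower hyperpolarization after a spike. Kcnn4 encodes the related intermediate-conductance channel, known in the brain mostly from microglia and vessels. Hcn2, Hcn3 and Hcn4 encode channels that open on hyperpolarization, pass an inward cation current and support pacemaking, with HCN4 best known from the sinus node of the heart and from thalamic neurons.

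The 250 bases before the RefSeq start of Kcnn3, Hcn4 and Hcn2 are shown. Among the tested members whose windows were examined, only theirs lie wholly outside exons of the annotation used. No window of Kcnn2 or Hcn3 was examined. Kcnn3 and Hcn4 were called higher while Hcn2 was not. The 3 windows are from GRCm38.p6 on the plus strand, at chr3:89519914-89520163, chr9:58822699-58822948 and chr10:79716384-79716633, respectively. Capitals mark matches on either strand to the GC box, searched as GGGCGG, to the CCAAT box under the letters of its name, and to the core of a TATA promoter element, searched as TATAAA.
Kcnn3: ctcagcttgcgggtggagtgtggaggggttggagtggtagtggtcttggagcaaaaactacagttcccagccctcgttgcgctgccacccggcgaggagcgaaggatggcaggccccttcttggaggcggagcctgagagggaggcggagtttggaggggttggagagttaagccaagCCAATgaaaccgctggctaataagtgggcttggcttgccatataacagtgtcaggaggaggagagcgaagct
Hcn4: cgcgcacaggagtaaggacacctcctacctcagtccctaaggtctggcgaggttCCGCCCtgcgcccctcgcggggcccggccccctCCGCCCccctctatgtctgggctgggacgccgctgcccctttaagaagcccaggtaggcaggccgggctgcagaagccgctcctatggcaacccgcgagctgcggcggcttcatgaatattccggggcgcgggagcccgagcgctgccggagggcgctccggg
Hcn2: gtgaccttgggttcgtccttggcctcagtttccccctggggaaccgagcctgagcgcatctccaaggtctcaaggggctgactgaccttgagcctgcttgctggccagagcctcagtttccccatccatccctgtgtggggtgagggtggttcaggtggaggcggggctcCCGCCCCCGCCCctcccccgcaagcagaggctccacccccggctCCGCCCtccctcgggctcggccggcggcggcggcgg
The Hcn4 window held 2 GC box matches and the Hcn2 window 3, whereas the Kcnn3 window held 0 and had 1 CCAAT match. GC content was 58.8% for Kcnn3, 71.2% for Hcn4 and 70.4% for Hcn2. Of 32851 RefSeq windows of the same length, 32.7% held a GC box, 33.8% a CCAAT box and 12.4% a TATA box. These letter matches describe the windows only, and none of the 3 windows held a TATA box match.

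Library totals ran from 14917174 to 36207554 counts in PBS mice and from 17552413 to 47613792 in HsTX1[R14A] mice. Neuronal markers summed to between 4710 and 7190 counts scaled to a common library total (CPM) in PBS mice and between 5360 and 7900 CPM in HsTX1[R14A] mice. Libraries also differed in how their counts depended on transcript length. The length slope of a library is the change in its log2 CPM, relative to the mean of all mice, for each doubling of a gene's longest transcript. It was -0.076 ± 0.161 (SD, n = 12) under PBS and 0.102 ± 0.119 (SD, n = 9) under HsTX1[R14A]. The lowest slopes were those of PBS mice 103 (-0.384) and 90 (-0.337), and the lowest in the HsTX1[R14A] group was that of mouse 93 (-0.142). The longest transcripts of the members range from 1626 bases (Kcnmb4) to 12094 bases (Kcnma1). The column names of the count table take a longer form for 10 PBS and 5 HsTX1[R14A] mice and a shorter form for 2 and 4 mice, and what the form stands for is not stated.

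Transcripts of Kcnma1, Kcnn3, Hcn3 and Hcn4 rose in HsTX1[R14A]-treated brains, and no member was called lower. Kcnmb4, Kcnn1, Kcnn2 and Hcn2 did not pass a false discovery rate (FDR) of 0.05 (edgeR's quasi-likelihood test with sex in the model and Benjamini-Hochberg adjustment over all genes). Across the 16303 genes tested, 31.6% passed this threshold, with 15.5% higher and 16.1% lower in HsTX1[R14A] mice, and the 4 of 8 members called higher are to be read against the 15.5%. The median log2 fold change was 0.41 over the 8 members and -0.01 over all genes tested. The ranges of the groups overlapped for all 8 members, and they did not overlap for 0.0184% of all genes. In a whole-brain sample, fewer cells of a type and less RNA per cell cannot be told apart.

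**Figure D1:**
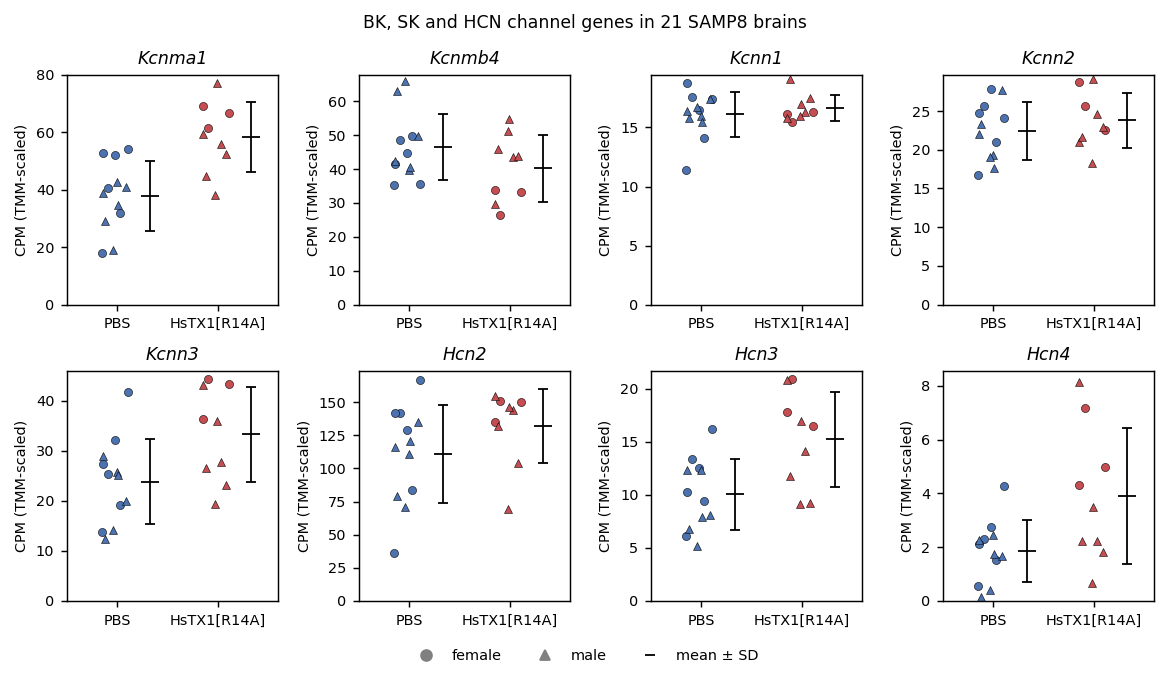
TMM-scaled CPM (vertical axes, linear and starting at 0) of the 8 members in each PBS (blue) and HsTX1[R14A] (red) mouse, with females as circles, males as triangles and the group mean ± SD beside the points. Kcnma1 lay above the highest PBS mouse in 6 of 9 HsTX1[R14A] mice, and the groups overlapped in all 8 panels.

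Kcnma1 (ENSMUSG00000063142) lies on the minus strand of chromosome 14 of GRCm38, from 23289431 to 24014491. PBS mice had 37.8 ± 12.1 CPM (SD, n = 12), with a lowest value of 17.9, a median of 39.6 and a highest of 54.3 CPM. Treated mice had 58.3 ± 12.2 CPM (SD, n = 9), with a lowest value of 38.1, a median of 59.5 and a highest of 77.1 CPM. The lowest PBS mice were 103 and 90, the lowest HsTX1[R14A] mouse was 93 and the highest was 81. Of the 9 HsTX1[R14A] mice, 8 exceeded the PBS median and 6 every PBS mouse, where 19.4% of all genes had at least 8 of 9 mice above that median. On the log2 scale the fold change was 0.67 (SE 0.17, FDR = 0.0173, edgeR), a 1.59-fold higher level. It was 0.66 in females and 0.67 in males.

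Kcnmb4 (ENSMUSG00000054934), on the minus strand of chromosome 10 from 116417861 to 116473878, was not called. Counts stood at 46.4 ± 9.73 CPM (SD, n = 12) under PBS, from 35.2 through a median of 43.6 to 65.9 CPM. Under HsTX1[R14A] it averaged 40.2 ± 9.89 CPM (SD, n = 9), from 26.4 through 43.4 to 54.9 CPM. The medians were close, 4 of 9 treated mice exceeded that of PBS mice, and the 3 treated females were at or below 33.7 CPM. Its log2 fold change was -0.28 (SE 0.12, unadjusted p = 0.0303, FDR = 0.0763, edgeR), with an approximate 95% interval from -0.51 to -0.04. Of all genes, 46.4% had an unadjusted p under 0.05. The FDR of Kcnmb4 was under 0.05 without PBS mouse 102 or without HsTX1[R14A] mouse 93, with a lowest value of 0.0426. The BK pore and this subunit were compared within each mouse. The log2 ratio of Kcnmb4 to Kcnma1 counts was 0.35 ± 0.68 (SD, n = 12) under PBS, from -0.61 to 1.80. It was -0.55 ± 0.56 (SD, n = 9) under HsTX1[R14A], from -1.22 to 0.42, with 1 of 9 above the PBS median. The sex-averaged difference was -1.03 (exact permutation of labels within sex over 77616 labelings, two-sided, p = 0.000953, adjusted p = 0.00477 over 5 ratios). Kcnmb4 has the shortest and Kcnma1 the longest transcript of the members. With the length slope of the libraries as a covariate, the difference was -0.27 (permutation of labels within sex on the adjusted t statistic, adjusted p = 0.144). Both genes overlap annotated antisense transcripts, and because it is not stated whether reads were counted by strand, these cannot be told apart from the genes themselves.

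Of the SK genes, Kcnn3 was called higher and Kcnn1 and Kcnn2 were not. Kcnn3 (ENSMUSG00000000794), on the plus strand of chromosome 3 from 89520164 to 89675132, encodes SK3, the SK channel that dopamine neurons express strongly. It was at 23.8 ± 8.5 CPM (SD, n = 12) under PBS, from 12.4 through a median of 25.3 to 41.7 CPM. Treated mice averaged 33.3 ± 9.42 CPM (SD, n = 9), from 19.3 through 36.0 to 44.4 CPM. The highest treated mice were 71, 72 and 88, at 44.4, 43.3 and 43.2 CPM, and PBS mouse 84, at 41.7 CPM, lay just below them. In all, 7 of 9 treated mice were above the PBS median and 3 above every PBS mouse. On the log2 scale the fold change was 0.54 (SE 0.18, FDR = 0.0341, edgeR), a 1.45-fold higher level. The call was lost when any 1 of 7 mice was left out (PBS mice 101 and 90 and HsTX1[R14A] mice 98, 71, 72, 88 and 81), with a highest FDR of 0.0678 without mouse 88.

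Kcnn1 (ENSMUSG00000002908, SK1), on the minus strand of chromosome 8 from 70842049 to 70863258, had the narrowest spread of the 8 members relative to its mean, with a coefficient of variation of 11.9% under PBS and 6.6% under HsTX1[R14A]. It was at 16.1 ± 1.92 CPM (SD, n = 12) under PBS, from 11.4 through 16.4 to 18.8 CPM, and at 16.6 ± 1.10 CPM (SD, n = 9) under HsTX1[R14A], from 15.5 through 16.3 to 19.1 CPM. Its log2 fold change was 0.03 (SE 0.07, FDR = 0.727, edgeR), with an approximate 95% interval from -0.11 to 0.17. Kcnn2 (ENSMUSG00000054477, SK2), on the plus strand of chromosome 18, was at 22.4 ± 3.74 CPM (SD, n = 12) under PBS, from 16.7 through 22.7 to 27.8 CPM. Under HsTX1[R14A] it was 23.8 ± 3.55 CPM (SD, n = 9), from 18.3 through 22.9 to 29.1 CPM. Its log2 fold change was 0.11 (SE 0.10, FDR = 0.403, edgeR), with an interval from -0.09 to 0.30. For both genes the treated mice lay within or close to the PBS range. Within a mouse, the log2 ratio of Kcnn3 to Kcnn2 was 0.02 ± 0.49 (SD, n = 12) under PBS and 0.44 ± 0.38 (SD, n = 9) under HsTX1[R14A]. The difference was 0.49 (adjusted p = 0.0345 and p = 0.0207 by exact permutation), with 8 of 9 treated mice above the PBS median, and it missed the threshold without any 1 of 7 mice. The ratio of Kcnn1 to Kcnn2 differed by -0.08 (exact permutation, p = 0.321, adjusted p = 0.321).

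Among the HCN genes, Hcn3 and Hcn4 were called higher and the more abundant Hcn2 was not. Hcn3 (ENSMUSG00000028051), on the minus strand of chromosome 3 from 89146074 to 89160196, was at 10.04 ± 3.36 CPM (SD, n = 12) under PBS, from 5.16 through 9.89 to 16.2 CPM. Treated mice had 15.3 ± 4.47 CPM (SD, n = 9), from 9.15 through 16.5 to 20.9 CPM. Treated mice 71 and 88 were highest and 93 lowest, 7 of 9 were above the PBS median, and 5 were above every PBS mouse. On the log2 scale the fold change was 0.66 (SE 0.18, FDR = 0.0188, edgeR), or 1.59-fold. Hcn3 overlaps Pklr, the red cell and liver pyruvate kinase gene, on the opposite strand.

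Hcn4 (ENSMUSG00000032338), on the plus strand of chromosome 9 from 58823412 to 58863175, was the least abundant member, with 5 to 113 counts in PBS libraries and 13 to 305 in HsTX1[R14A] libraries. Counts stood at 1.85 ± 1.14 CPM (SD, n = 12) under PBS, from 0.162 through 1.93 to 4.29 CPM. Under HsTX1[R14A] it averaged 3.90 ± 2.52 CPM (SD, n = 9), from 0.658 through 3.50 to 8.16 CPM. Treated mice 88 and 71 were highest, at 8.16 and 7.19 CPM, and PBS mouse 101 was lowest. Its log2 fold change was 1.17 (SE 0.40, FDR = 0.0340, edgeR), or 2.25-fold, with 7 of 9 treated mice above the PBS median. Its call was also lost when any 1 of 7 mice was left out (PBS mice 73 and 90 and HsTX1[R14A] mice 98, 71, 72, 88 and 81), with a highest FDR of 0.0913 without mouse 88.

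Hcn2 (ENSMUSG00000020331), on the plus strand of chromosome 10 from 79716634 to 79736108, was at 111 ± 37.0 CPM (SD, n = 12) under PBS, from 36.2 through 118 to 167 CPM. Treated mice averaged 132 ± 28 CPM (SD, n = 9), from 69.4 through 144 to 155 CPM. No treated mouse exceeded the highest PBS mouse, although 7 of 9 were above the PBS median. On the log2 scale the fold change was 0.27 (SE 0.20, FDR = 0.284, edgeR), with an interval from -0.12 to 0.67. Relative to Hcn2 in the same mouse, the log2 ratio of Hcn4 was -6.18 ± 0.98 (SD, n = 12) under PBS and -5.36 ± 0.80 (SD, n = 9) under HsTX1[R14A]. That is a sex-averaged difference of 0.98 (exact permutation, p = 0.00377, adjusted p = 0.00944). The log2 ratio of Hcn3 to Hcn2 was -3.44 ± 0.41 (SD, n = 12) and -3.13 ± 0.26 (SD, n = 9), a difference of 0.35 (exact permutation, p = 0.0329, adjusted p = 0.0412). For each of these ratios, 7 of 9 treated mice were above the PBS median, and the Hcn3 ratio missed the threshold without any 1 of 14 mice (lowest difference 0.30).

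**Figure D2:**
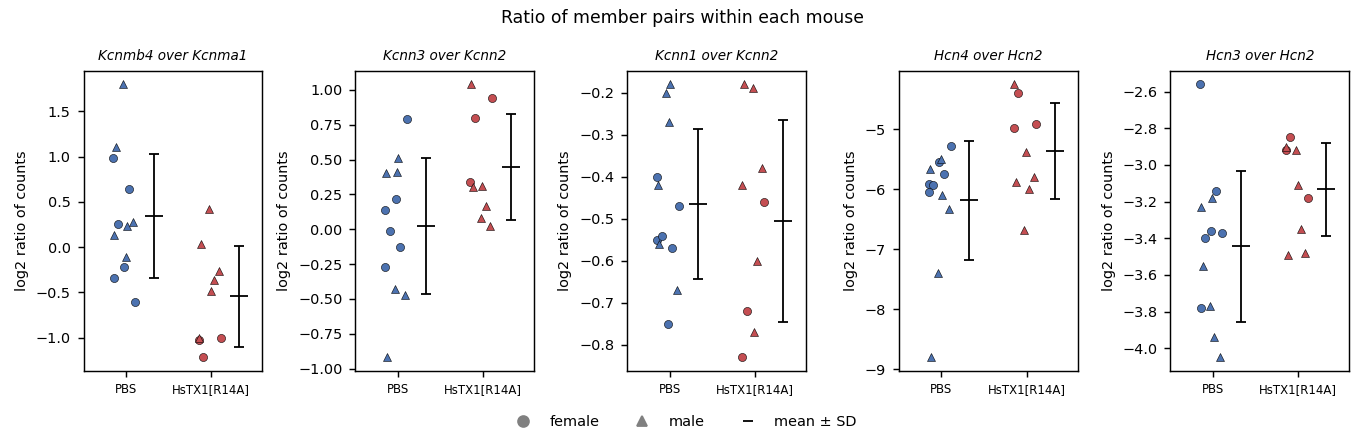
Log2 ratio of the counts of 2 members within each mouse (vertical axes), by treatment, with females as circles, males as triangles and the mean ± SD beside the points. The Kcnmb4 to Kcnma1 ratio had a mean of 0.35 in PBS mice and -0.55 in HsTX1[R14A] mice, and the groups overlapped in all 5 ratios.

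Markers of brain regions known to use SK3 or HCN4 were read beside these genes. The summed level of the midbrain dopamine neuron markers Th, Slc6a3, Slc18a2 and Ddc was 4.45 to 23.2 CPM in PBS mice, with a median of 13.9 CPM. In HsTX1[R14A] mice it was 8 to 97.1 CPM, with a median of 11.8 CPM, and the highest values were those of mice 71 (97.1 CPM) and 88 (71.5 CPM). Of these 4 markers, Slc6a3, the dopamine transporter, was called higher, with a log2 fold change of 3.31 (SE 0.84, FDR = 0.0171, edgeR). Summed thalamus markers (Prkcd, Tnnt1, Tcf7l2, Lef1 and Rora) ran from 119 to 279 CPM in PBS mice and from 106 to 260 CPM in HsTX1[R14A] mice. Mice 88 (260 CPM) and 71 (243 CPM) were the highest of the treated group here too, and they were also the highest in Hcn4. PBS mouse 82, with the highest thalamus sum of all (279 CPM), had 1.67 CPM of Hcn4, below the PBS median of 1.93 CPM. Next in thalamus sum within the PBS group were mice 85 (253 CPM) and 84 (232 CPM). Their Hcn4, at 2.75 and 4.29 CPM, was the highest of that group. Mouse 72 had high Kcnn3 with only 11.8 CPM of dopamine neuron markers and 120 CPM of thalamus markers. With mice 71 and 88 both left out, 0 members and 0 of all genes were called (edgeR), while 36.9% of all genes had an unadjusted p under 0.05. In that fit the log2 fold changes were 0.66 for Kcnma1 (FDR = 0.0658), 0.52 for Hcn3 (FDR = 0.0756), 0.42 for Kcnn3 (FDR = 0.125) and 0.71 for Hcn4 (FDR = 0.188).

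Of the thalamus markers, 1 of 5 was called lower. Marker sums of other cell types are given for PBS mice first. Oligodendrocyte markers ran from 4030 to 6380 CPM in PBS mice and from 3100 to 4540 CPM in HsTX1[R14A] mice, with 3 of 5 called lower. Microglia markers ran from 334 to 484 CPM and from 280 to 420 CPM, with 2 of 6 lower, and astrocyte markers from 673 to 1310 CPM and from 703 to 1040 CPM, with 2 of 4 lower. Endothelial markers ran from 30.4 to 74.8 CPM and from 39.6 to 84.6 CPM, with 1 of 4 higher, and 1 of 6 neuronal markers was higher. None of the 5 cerebellar, 3 smooth muscle, 4 choroid plexus and 5 erythrocyte markers was called. Cerebellar markers ran from 152 to 311 CPM (median 197) and from 156 to 543 CPM (median 177), highest in HsTX1[R14A] mouse 74. Their log2 fold changes were 3.8 for Gabra6 (SE 1.9), 3.41 for Pcp2 (SE 1.69), 1.03 for Cbln1, 0.18 for Car8 and -0.19 for Calb1. The T cell markers were not analysed here. The part of these cell types in the members' differences was not tested.

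Members were ordered by CPM per kilobase of longest annotated transcript, an approximate scale for comparing levels of different genes. It rests on that annotated length, and which transcripts were expressed was not tested. In PBS mice the order was Hcn2 (34.8 ± 11.6, SD, n = 12), Kcnmb4 (28.5 ± 5.98), Kcnn2 (6.09 ± 1.02), Kcnn1 (3.98 ± 0.473), Kcnma1 (3.13 ± 1.00), Kcnn3 (2.87 ± 1.02), Hcn3 (2.51 ± 0.839) and Hcn4 (0.303 ± 0.186). Among neighbours in this order, the ranges did not overlap between Kcnmb4 and Kcnn2 or between Hcn3 and Hcn4, and they overlapped in every other step. Hcn2 was above Kcnmb4 in 8 of 12 PBS mice. Hcn2 ranked at the 89th and Hcn4 at the 7th percentile of all genes tested. In HsTX1[R14A] mice Kcnma1 stood at 4.82 ± 1.01 CPM per kilobase (SD, n = 9), next to Kcnn1 at 4.11 ± 0.271 CPM per kilobase.

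The members were also read against the length slope of the libraries. Kcnma1 was lowest in the mice with the lowest slopes, PBS mice 103 (17.9 CPM) and 90 (18.9 CPM), and high in those with the highest slopes, HsTX1[R14A] mice 98 (69.1 CPM) and 81 (77.1 CPM). Kcnn3, Hcn3 and Hcn4 were likewise low in mice 103, 90, 101 and 93. Kcnmb4, the shortest member, was at its highest in PBS mouse 90, at 65.9 CPM, and at its lowest in HsTX1[R14A] mouse 71, at 26.4 CPM. It did not follow the slope in every library: PBS mouse 103, of the lowest slope, had the lowest Kcnmb4 of the PBS group (35.2 CPM), and mouse 81, of the second highest slope, had the highest of the treated group (54.9 CPM). With the length slope as a covariate, 0 members and 0 genes were called (edgeR), while 11.4% of all genes had an unadjusted p under 0.05. The log2 fold changes in that fit were 0.12 for Kcnma1, 0.14 for Hcn3, 0.01 for Kcnn3, -0.02 for Hcn4, -0.35 for Hcn2 and -0.15 for Kcnmb4. With the same covariate, the within-mouse ratio of Kcnmb4 to Kcnma1 differed by -0.27 (permutation of labels within sex on the covariate-adjusted t statistic, p = 0.0576, adjusted p = 0.144). That of Hcn3 to Hcn2 differed by 0.51 (permutation, p = 0.0109, adjusted p = 0.0547), and the other 3 ratios had adjusted p of 0.618 or higher.

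**Figure D3:**
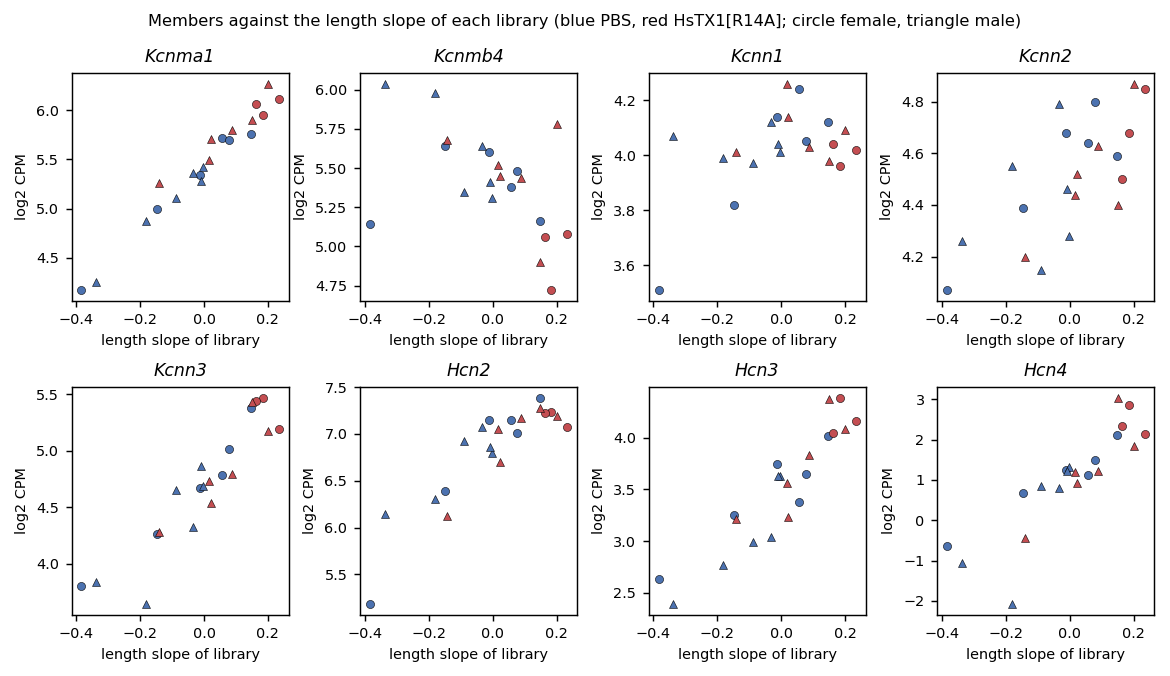
Log2 CPM of each member (vertical axes) against the length slope of the library (horizontal axes, change in log2 CPM for each doubling of transcript length), with PBS in blue, HsTX1[R14A] in red, females as circles and males as triangles. Libraries of low slope, such as PBS mice 103 (-0.384) and 90 (-0.337), had low Kcnma1, Hcn3 and Hcn4, whereas Kcnmb4 was highest in PBS mouse 90 (65.9 CPM) and, within the PBS group, lowest in mouse 103 (35.2 CPM).

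When the dependence of each library on transcript length and GC was removed before the test, 3 members were called higher, where 8.96% of all genes were. Kcnma1 had a log2 fold change of 0.38 (FDR = 0.0106, edgeR), Hcn3 0.35 (FDR = 0.0226) and Kcnn3 0.35 (FDR = 0.0492), and Hcn4, at 0.69, had an FDR of 0.0937. With 1 surrogate variable, Kcnma1 (0.38, FDR = 0.00976) and Hcn3 (0.36, FDR = 0.0305) were called higher, where 6.45% of all genes were (12.9% in either direction). The name form of the libraries was read in the same way. Within the 15 mice of the longer form, the log2 fold changes were 0.68 for Kcnma1, 0.79 for Hcn3, 1.49 for Hcn4 and 0.64 for Kcnn3, with FDRs from 0.0615 to 0.0953, and 0 of all genes were called although 35.6% had an unadjusted p under 0.05. In the 6 mice of the shorter form they were 0.42, 0.33, 0.42 and 0.25, each with an FDR of 0.855, and 3.29% of all genes had an unadjusted p under 0.05.

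**Figure D4:**
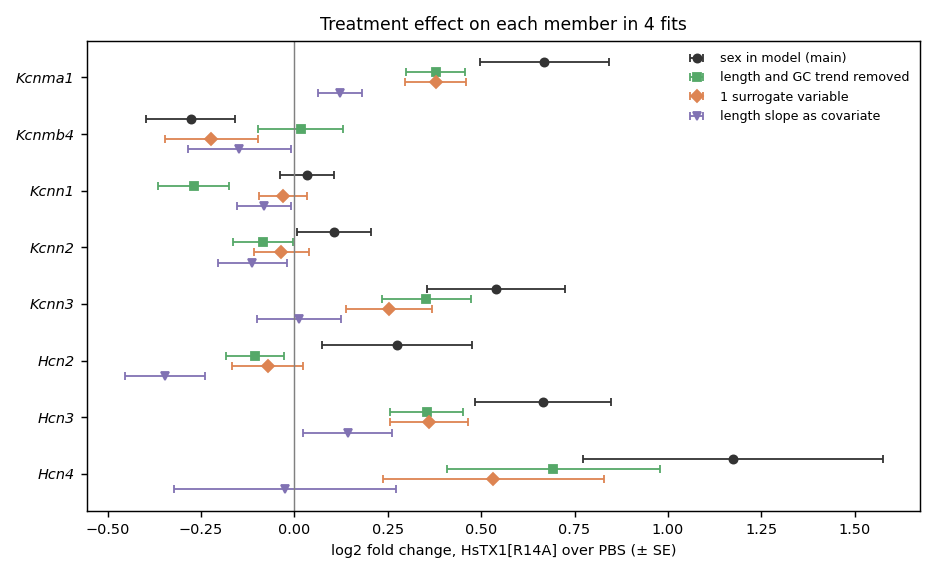
Log2 fold change, treated over PBS (horizontal axis, bars ± SE) for each member in 4 fits: sex in the model, length and GC trend removed, 1 surrogate variable, and length slope as a covariate. The value of Kcnma1 was 0.67, 0.38, 0.38 and 0.12 in that order, and that of Hcn2 was 0.27 in the first fit and below 0 in the other 3.

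Females and males were compared directly. No gene had a treatment by sex interaction at an FDR of 0.05 (edgeR), 1.66% of genes had an unadjusted p under 0.05 (270 genes, against 250 with limma/voom and 302 with DESeq2), and the 8 members had unadjusted p from 0.253 (Kcnmb4) to 0.969 (Kcnma1). The log2 fold change was 0.63 in females and 0.48 in males for Kcnn3, 0.69 and 0.65 for Hcn3, 1.25 and 1.12 for Hcn4, and -0.45 and -0.17 for Kcnmb4. Within either sex alone, no gene reached the FDR threshold, while 27.8% of genes in females and 24% in males had an unadjusted p under 0.05. Between the sexes, with treatment in the model, 0.0552% of genes were called and no member was, the lowest FDR being 0.446. The female minus male log2 difference was -0.35 for Kcnmb4 (SE 0.12), 0.41 for Kcnn3 (SE 0.19) and 0.40 for Hcn3 (SE 0.18), where 10.8% of genes had an unadjusted p under 0.05.

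Genes that act with these channels were read from a list of 35, of which 32 were tested, 8 were higher, 2 were lower and 22 were not called. The 10 calls made up about the same share as the 31.6% called among all genes tested (15.5% of all genes higher and 16.1% lower). Of the 14 genes for calcium sources, 7 rose, where 15.5% of all genes did: the calcium channel pores Cacna1a (log2 fold change 0.74), Cacna1b (0.79), Cacna1c (0.90), Cacna1e (0.68), Cacna1h (0.66) and Cacna1i (1.06), and the ryanodine receptor Ryr2 (0.57). P/Q-type and N-type channels, with pores encoded by Cacna1a and Cacna1b, open next to BK channels, and L-type channels such as that of Cacna1c feed both BK and SK channels. The other 7 had log2 fold changes from 0.29 to 0.80. With the length slope as a covariate the 14 values ran from -0.33 to 0.13, and none was called. Calm2, which encodes calmodulin, the calcium sensor bound to SK channels, fell (-0.34, FDR = 0.0448, edgeR) and was at 0.0 with the length slope as a covariate, and Calm3 had a value of -0.06. The casein kinase genes Csnk2a1, Csnk2a2 and Csnk2b, whose products modulate SK channels, had values of 0.06, 0.13 and -0.10 and were not called.

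None of the 5 other BK subunit genes tested was called. Kcnmb1, the smooth muscle beta subunit, had a log2 fold change of -0.55 (FDR = 0.0559, edgeR) and Lingo1 one of 0.48 (FDR = 0.0736), and Kcnmb2, Lrrc38 and Lrrc55 lay between -0.11 and 0.27. None of the 3 other Slo family genes was called, with values of 0.39 for Kcnt1, -0.23 for Kcnt2 and -0.31 for Kcnu1. Of the 4 genes listed for HCN channels, 1 was called higher. Kcne2 (-0.78, FDR = 0.151, edgeR) and Flna (0.06) were not, and Pex5l, which encodes the subunit TRIP8b that sets where the channels sit, was at 0.02 (FDR = 0.84, edgeR). Kcna3, which encodes the channel the peptide blocks, was at 4.10 ± 0.813 CPM (SD, n = 12) under PBS and 5.71 ± 1.51 CPM (SD, n = 9) under HsTX1[R14A]. Its log2 fold change was 0.53 (SE 0.14, FDR = 0.0180, edgeR), and 0.45 with the length slope as a covariate.

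**Figure D5:**
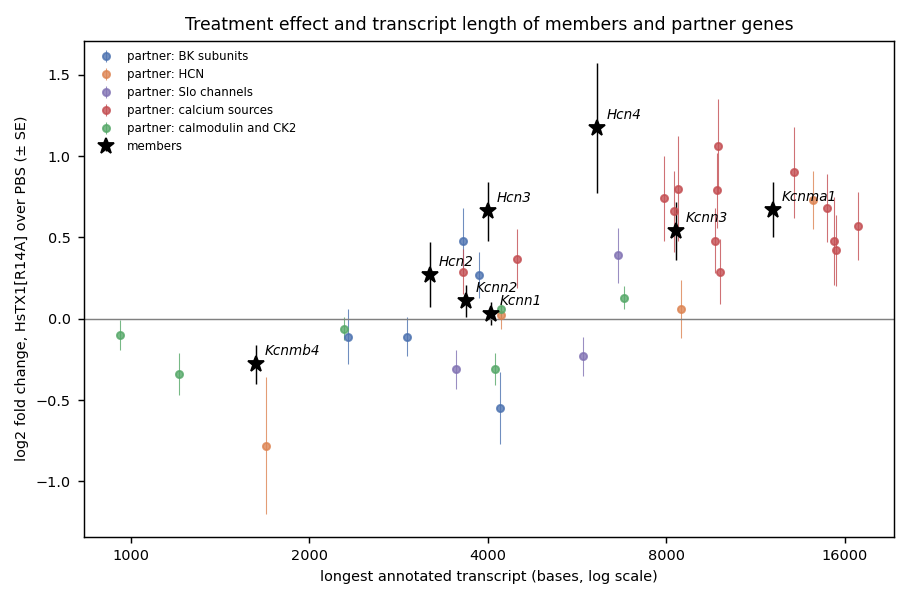
Log2 fold change, treated over PBS (vertical axis, bars ± SE) against the longest annotated transcript (horizontal axis, log scale) for the 8 members (stars) and 32 partner genes (circles, colored by list). The 14 calcium source genes all lay above 0, Kcnmb4 at 1626 bases was below 0, and Kcnma1 at 12094 bases was above 0.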

How the data were processed

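Whole-brain RNA from 12 PBS-treated and 9 HsTX1[R14A]-treated SAMP8 mice was sequenced with 1 library per mouse. The authors ran nf-core/rnaseq (version 3.2), with STAR alignment to GRCm38 and Salmon quantification, and deposited estimated counts, not normalized, for 16318 genes. They are gene-level estimates, and 90.496% of them lie within 0.01 of a whole number. All were rounded here. The table's comparison columns (log2 fold change, p-value, FDR and mean expression) and 53 per-sample columns (CPM and counts of other libraries) were not used. Sample titles spell the peptide HxTX1[R14A]. The labels and the paper name different library kits, and the strand setting of the counting is not given in the sources used here.

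TMM scaling was applied to the 16303 genes kept by filterByExpr, and edgeR 4.0.16 in R 4.3.3 fitted a quasi-likelihood model of sex plus treatment with an FDR threshold of 0.05 over all genes. The study's own test was limma/voom with sex correction. Each SE is the absolute log2 fold change over the root of its F statistic. Ratios carry 0.5 counts added to each gene. With the length slope as covariate, labels were permuted on the adjusted t statistic, which is approximate because slope and treatment are correlated. Transcript lengths come from GENCODE on GRCm38, found for 16224 genes, and promoters from RefSeq on GRCm38.p6, matched by symbol. Library totals of 14917174 to 47613792 counts leave the spread between mice as the main error, and counting error weighs most on Hcn4. No library was a copy of another within the 48 pairs sharing treatment and sex, where the lowest mean chi-square per gene was 7.58. Pairs across treatment or sex were not compared. P-values measure the spread between single mice. The edgeR steps were tested on simulated data.

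The members, lists and tests were chosen with earlier results of these data known. Named genes are the members, the partner list, Kcna3, the 2 genes most like each member and markers that moved with a member. Some genes of the partner list are counted but not reported by name here. Alternatives were limma/voom (3.58.1), DESeq2 (1.42.0), RLE scaling, other filters (no minimum beyond 1 count, or 10 counts in every mouse), no sex term, name form as covariate or each form alone, 1 surrogate variable (sva 3.50.0), removal of the length and GC trend (loess, span 0.5), the length slope as covariate, 2 counts added in ratios and each mouse left out. Removing PBS mice 103 and 90, or HsTX1[R14A] mice 71 and 88, was an alternative chosen once the data were known.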

Additional observations from a re-analysis of the deposited data

Results flagged for a closer look

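Over 52 groups of mice and members or ratios, 1 value stood far from the rest of its group. In HsTX1[R14A] males, the log2 ratio of Kcnn3 to Kcnn2 was 1.04 in mouse 88 and between 0.02 and 0.31 in the other 5 males, a gap of 0.716 of the group's range. With 52 groups examined, 1 such value can arise by chance alone. Treated females 71 and 72 had ratios of 0.80 and 0.94.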

How the results depend on the processing

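The paper assigned treatment at random within each cage, but the labels used here do not give the cage. Each mouse has its own number and the groups share none, so no paired analysis was possible. The 4 member calls held with limma/voom, DESeq2, RLE scaling and without a count filter. With at least 10 counts in every mouse, 3 were made and Hcn4 was not tested. Calls over all genes were 5144 as reported and are given in brackets for the other settings. The number of members called was 2 with 1 surrogate variable (2110), with the name form as covariate (1999) and without a sex term (2984). It was also 2 without PBS mice 103 and 90 (2887, or 17.7% of all genes). It was 0, with 0 over all genes, with the length slope as covariate, without HsTX1[R14A] mice 71 and 88 and within either name form. With 1 mouse left out the number of members called ran from 2 to 5. It was 2 without PBS mouse 90 (2289) and without treated mouse 71 (3332), 72 (3504), 81 (3263), 88 (3121) or 98 (3005). It was 5 without PBS mouse 102 (5840) or treated mouse 93 (6614). Partner calls were 10 beside 5144 over all genes as reported. They did not always move with calls over all genes, being 9 with limma/voom (5201 over all genes) and 10 without PBS mouse 103 (4950). They were 6 with a surrogate variable (2110 over all genes) or with the length and GC trend removed (2501), 5 without a sex term (2984) or without PBS mice 103 and 90 (2887), 3 with the name form (1999), and 0, with 0 over all genes, with the length slope, without mice 71 and 88 or within either name form. With 1 mouse left out they ran from 3 (without mouse 98, 3005 over all genes) to 15 (without mouse 93, 6614).

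Removal of the length and GC trend turned the log2 fold changes of Kcnmb4 (0.02), Kcnn1 (-0.27), Kcnn2 (-0.08) and Hcn2 (-0.11). A surrogate variable turned Kcnn1 (-0.03), Kcnn2 (-0.04) and Hcn2 (-0.07), and the length slope turned Kcnn1 (-0.08), Kcnn2 (-0.11), Hcn2 (-0.35) and Hcn4 (-0.02). Within the shorter name form Kcnmb4 was at 0.05. None of these turned values passed the threshold, and the cause was not tested.

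Of the within-mouse ratios, Kcnmb4 to Kcnma1 missed the threshold with the length slope (-0.27) and within the shorter name form (-0.41), where 0.125 is the smallest p possible. Kcnn3 to Kcnn2 missed it without stratifying by sex (0.42), with the name form (0.34) and with the length slope (0.13), and was -0.003 within the shorter form. Hcn4 to Hcn2 missed it in the same 4 settings (0.83, 0.79, 0.38 and 0.45), and Hcn3 to Hcn2 without stratifying by sex (0.31), with the name form (0.37), with the length slope (0.51) and within the longer (0.40) and shorter (0.34) form. Kcnn1 to Kcnn2 turned to 0.02 with the length slope. With 1 mouse left out, Kcnn3 to Kcnn2 ran from 0.40 to 0.57 and Hcn3 to Hcn2 from 0.30 to 0.42, and they missed the threshold without any of 7 and 14 mice, respectively.

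Interactions of treatment and sex near 0 changed sign when 1 mouse was left out. They ran from -0.17 to 0.11 for Kcnma1, from -0.13 to 0.0005 for Kcnn1, from -0.05 to 0.12 for Kcnn2, from -0.12 to 0.20 for Hcn2, from -0.08 to 0.22 for Hcn3 and from -0.10 to 0.74 for Hcn4. For Kcnma1 the interaction was 0.0003 with DESeq2 and 0.05 with limma/voom. Depth limits only Hcn4, at 5 counts in its lowest library.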

Other observations

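For each member, the 2 genes whose log2 CPM was most like it over the 21 mice were taken from 13302 genes, by Pearson's r of the residuals from treatment and sex means. They were Tecpr2 (0.984) and Synj1 (0.981) for Kcnma1, Tnk2 (0.983) and Shank1 (0.982) for Hcn2, and Chst11 (0.965) and Nos1 (0.958) for Kcnn3. Alpl (0.966) and Slc6a11 (0.944) were nearest to Hcn4, Casc3 and Parvb (both 0.960) to Hcn3, and Lmo4 (0.947) and Galt (0.915) to Kcnmb4. Adora1 (0.921) and Frmd5 (0.917) were nearest to Kcnn2, and 9230112E08Rik (0.886) and Slc35a4 (0.881) to Kcnn1. The points share library and depth, and each pair is the top of a long list, so the values are a description.

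Among the members themselves, the residuals of Kcnn3 and Hcn4 (0.94), Kcnn3 and Hcn3 (0.90) and Kcnma1 and Hcn2 (0.89) were the most alike. Kcnmb4 ran against Hcn4 (-0.62), Kcnn3 (-0.53) and Hcn3 (-0.46), and with Kcnn2 (0.29) and Kcnn1 (0.23). The lengths of these transcripts differ, and the length slope of the libraries varies within the groups as well as between them.

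The spread between mice differed widely among members. The coefficient of variation in PBS mice was 11.9% for Kcnn1 and 16.7% for Kcnn2, 32.0% for Kcnma1, 35.7% for Kcnn3 and 61.5% for Hcn4.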
